A study of Mus musculus with 12 samples.

Results

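The 10 genes described here, Myb, Pla2g4f, Drc1, Rasip1, Matn2, Selp, Stra6, Rec8, Ntn4 and Zscan29, are little known in regulatory T cells. They were picked from the 21839 genes of the deposited count table because their counts were higher in cells sorted for high CD25 than in cells sorted for low CD25, in one or both genotypes. The High to Low differences therefore chose the genes and are given below as a description only. The replicate numbers are balanced over gates and genotypes, so the choice did not use the comparison between them. The choice did not rank genes on the genotype comparisons within a gate, but these share libraries with it: a gene picked through TG alone is favoured to be higher in TG High and lower in TG Low.

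RNA was measured by RNA-seq in 12 libraries of CD4+ T cells from C57BL/6 mice, gated on one more surface marker and on CD25, from spleen and from inguinal, cervical and brachial lymph nodes. The mice called TG here carried Atg5 flox/flox with CD11c Cre +/-, and their littermates called WT carried Atg5 flox/flox with CD11c Cre -/-, so every mouse had the floxed Atg5 alleles. Cre under the CD11c promoter is meant to act in CD11c-expressing cells, mainly dendritic cells. Whether it also acted in the T cells that were sequenced was not tested. The groups were TG High, WT High, TG Low and WT Low, with 3 libraries each, where High and Low are the CD25 gates. No Foxp3 stain was part of the gates per the labels, ages are not stated, and nothing in the labels says that the libraries came from separate animals. The p-values therefore measure the spread between these libraries, which may be technical.

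Regulatory T cells hold back other immune cells and depend on the transcription factor Foxp3 and on interleukin-2, which they bind through CD25, the product of Il2ra. The 10 genes belong to pathways that are mostly studied outside these cells. Myb is a transcription factor of blood progenitors and developing T cells, and in mice it is also known to act in effector regulatory T cells. Pla2g4f encodes a cytosolic phospholipase that frees fatty acids from membrane lipids, and Rasip1 an effector of the small GTPase Rap that is best known in blood vessels. Selp encodes P-selectin, the adhesion receptor of platelets and endothelium, and Stra6 the membrane receptor that takes up retinol from its carrier in blood. Matn2 and Ntn4 encode secreted proteins of the extracellular matrix, a matrilin and a netrin. Drc1 encodes a part of the nexin-dynein regulatory complex of motile cilia, and Rec8 the meiotic subunit of cohesin.

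Total counts ran from 6767828 to 21382878 per library in TG High, where replicate 2 was the lowest of all, from 18161830 to 23942479 in WT High, from 19230463 to 20223658 in TG Low and from 18678438 to 20236348 in WT Low. Il2ra, the gene of the sorted protein, averaged 1183 CPM in TG High and 593 CPM in TG Low, and 1190.0 CPM in WT High and 589 CPM in WT Low; CPM scales the counts of a library to a common total, here with TMM factors that correct for composition. Foxp3 averaged 1525 CPM in TG High, 1550.0 CPM in WT High, 1140.0 CPM in TG Low and 1086 CPM in WT Low. The T cell genes Cd4 (513 to 715 CPM) and Cd3e (921 to 1145 CPM) were high in every library. Atg5 averaged 38.6 CPM in TG High, 33.3 CPM in WT High, 38.6 CPM in TG Low and 37.0 CPM in WT Low, which checks nothing about a deletion in another cell type. All 10 genes passed the filter on low counts that left 11766 genes for testing.

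Sequences around the starts of 4 of the genes are shown as examples of starts rich and poor in CpG. RefSeq promoter windows of build GRCm38.p6 (250 bases before to 50 after a start) were matched for 9 of the 10 genes, all but Matn2, in 12 windows. Zscan29 and Myb have starts rich in CpG, with 32 and 40 CpG in 300 bases, while Rasip1 has 9 and Pla2g4f has 2, against a median of 7 over 32851 windows. The windows are chr2:121171076-121171375 (minus strand) for Zscan29, chr10:21160935-21161234 (minus strand) for Myb, chr7:45627287-45627586 (plus strand) for Rasip1 and chr2:120314116-120314415 (minus strand) for Pla2g4f. Each is written 5′ to 3′ on the gene's strand, with matches to the searched motifs in capitals.
Zscan29: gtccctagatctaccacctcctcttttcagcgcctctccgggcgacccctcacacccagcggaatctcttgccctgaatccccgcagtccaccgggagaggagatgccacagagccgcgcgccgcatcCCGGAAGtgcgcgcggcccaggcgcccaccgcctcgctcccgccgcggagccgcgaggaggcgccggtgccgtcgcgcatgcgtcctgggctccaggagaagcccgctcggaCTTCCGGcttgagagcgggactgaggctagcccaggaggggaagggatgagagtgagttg
Myb: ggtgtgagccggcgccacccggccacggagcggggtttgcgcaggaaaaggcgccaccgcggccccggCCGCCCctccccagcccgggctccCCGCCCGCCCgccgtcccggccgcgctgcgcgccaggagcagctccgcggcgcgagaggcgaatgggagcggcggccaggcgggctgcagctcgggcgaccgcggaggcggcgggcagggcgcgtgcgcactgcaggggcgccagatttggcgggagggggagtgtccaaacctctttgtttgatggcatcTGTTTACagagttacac
Rasip1: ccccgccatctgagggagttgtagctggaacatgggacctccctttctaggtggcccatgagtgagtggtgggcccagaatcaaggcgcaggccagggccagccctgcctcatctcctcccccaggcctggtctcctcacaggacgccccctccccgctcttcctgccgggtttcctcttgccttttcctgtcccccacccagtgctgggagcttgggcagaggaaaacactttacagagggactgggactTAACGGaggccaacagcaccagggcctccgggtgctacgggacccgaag
Pla2g4f: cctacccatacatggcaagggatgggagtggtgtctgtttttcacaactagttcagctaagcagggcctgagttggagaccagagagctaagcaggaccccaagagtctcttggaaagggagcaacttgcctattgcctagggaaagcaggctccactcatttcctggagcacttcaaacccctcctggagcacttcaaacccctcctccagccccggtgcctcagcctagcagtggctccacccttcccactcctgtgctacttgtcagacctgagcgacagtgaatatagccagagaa

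The capitals in the Zscan29 window mark the Ets-type motif CCGGAAG at -122 and its reverse complement at -10, counted from the start. Those in the Myb window mark a Forkhead-type TGTTTAC at 34 and 3 matches of the GC box GGGCGG on the other strand, of which the last pair overlaps. The Rasip1 window held the Myb-type motif TAACNG at 2, and the Pla2g4f window held no match. Both strands were searched for 9 motifs in every window. The Ets-type motif occurred in 8.86% of all windows and in 1 of the 12 windows of these genes, the Forkhead type in 3.65% and in 1, the Myb type in 23.3% and in 2 (Rasip1 and Stra6), and the GC box in 35.7% and in 5 (of Myb, Ntn4 and Stra6). TGTGGT, the Runx type, was found in 16.8% of all windows and in 1 of the 12, and the nuclear receptor element AGGTCA in 16.3% and in 2. No window of these genes held the STAT-type TTCNNNGAA (8.3% of all windows), TGACGT (7.51%) or TATAAA (13.6%). These matches describe letters in a window and say nothing of a factor's binding.

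Over the 12 libraries the genes differed in level per kilobase of exon, from a mean of 12.4 CPM per kb for Zscan29 and 10.9 CPM per kb for Ntn4 down to 1.39 CPM per kb for Matn2. Between them stood Drc1 at 5.55, Rasip1 at 5.11, Pla2g4f at 4.4, Rec8 at 3.5, Myb at 3.46, Selp at 1.85 and Stra6 at 1.55 CPM per kb. Most neighbours did not differ beyond their spread. In the order within each group, the gap between adjacent genes exceeded the sum of their SDs only between Zscan29 and Drc1 in TG High, Rec8 and Selp in WT High, and Ntn4 and Rasip1 in WT Low. The plot of the 10 genes shows each library. For 7 of the 10 genes, all but Matn2, Stra6 and Ntn4, the 6 High libraries all lay above the 6 Low libraries, as they did for 0.952% of all genes tested. Each of the 60 same-numbered High and Low pairs was higher in High, so that all 10 genes were higher in all 6 of their pairs, as were 7.02% of all genes. Within TG the 3 High libraries lay above the 3 Low ones for 7 genes (4.22% of all genes), and within WT for 8 (4.49%). In sorted bulk samples, fewer cells that express a gene and less RNA per cell cannot be told apart.

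**Figure D1:**
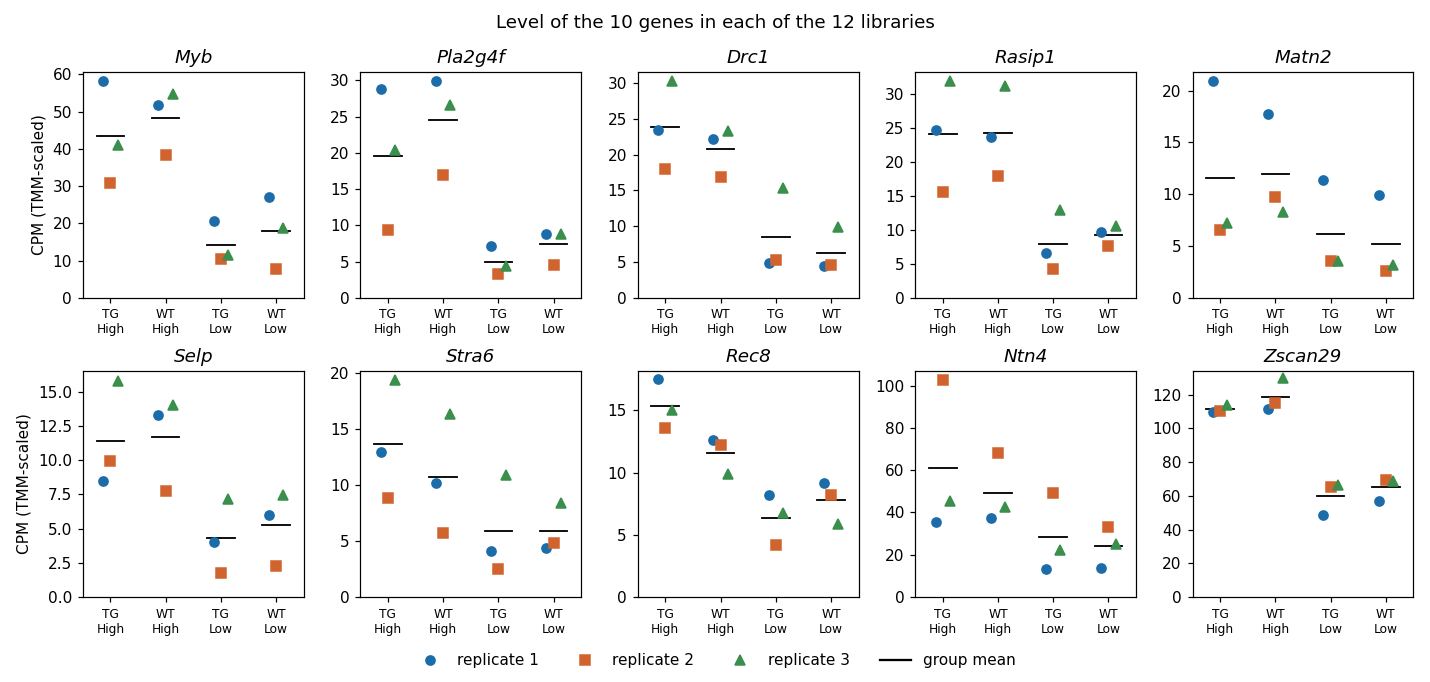
Level of each of the 10 genes in CPM (vertical axis, from 0) in the 12 libraries, by group, with markers for the replicate number and bars for group means (n = 3). The 6 High libraries lie above the 6 Low libraries except for Matn2, Stra6 and Ntn4, whose levels differ as much between replicate numbers. Within WT alone Ntn4 shows no overlap.

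Of the genes with a role in transcription, Zscan29 had the highest level of the 10. This SCAN-domain zinc finger gene (ENSMUSG00000050619, chromosome 2, 121158273 to 121171125, minus strand) had 109.9, 110.5 and 114 CPM in TG High and 48.5, 65.4 and 66.3 CPM in TG Low. WT High libraries had 112, 115 and 130.0 CPM and WT Low libraries 56.9, 69.3 and 68.8 CPM. High and Low levels were far apart in both genotypes, with the lowest High library well above the highest Low one. Same-numbered libraries deviated together, so log2 differences of High minus Low are given from a model that holds the replicate number as a block. For Zscan29 that difference was 0.91 (SE 0.09) in TG and 0.87 (SE 0.09) in WT. Of 22 tested SCAN-domain zinc finger genes besides Zscan29, 0 were called in either genotype, that is 0 had an edgeR adjusted p under 0.05 in the blocked fit, with a median log2 difference of 0.04 in TG and 0.06 in WT, against 0.002 and -0.001 over all genes tested.

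Zscan29 lies head to head with Tubgcp4, a gamma-tubulin complex gene on the plus strand, and their gene bodies share 472 bases, 57 of them exonic in both. The Zscan29 window printed above shares 142 bases with that of Tubgcp4, and the library kit does not record strand, so reads from the shared exon bases cannot be told apart. Tubgcp4 had 92.9, 89.2 and 92.0 CPM in TG High and 59.3, 76.5 and 61.2 CPM in TG Low, and 87.9, 112 and 98.7 CPM in WT High and 65.6, 78.3 and 72.1 CPM in WT Low. High libraries of Tubgcp4 also lay above Low ones, by less. Its log2 difference with the block was 0.49 (SE 0.09, edgeR adjusted p = 0.0073) in TG and 0.46 (SE 0.09, edgeR adjusted p = 0.00951) in WT; without the block the adjusted p was 0.38 in TG and 0.513 in WT. The blocked call was lost in TG without TG High replicate 1 or TG Low replicate 1 or 3, and in WT without WT High replicate 2 or 3 or WT Low replicate 1 or 2. Without the 4 libraries numbered 1, the blocked adjusted p was 0.311 in TG and 0.124 in WT. The ratio of Zscan29 to Tubgcp4 CPM was 1.18, 1.24 and 1.24 in TG High and 0.818, 0.855 and 1.08 in TG Low, and 1.27, 1.03 and 1.32 in WT High and 0.868, 0.884 and 0.955 in WT Low. The ratio ranges did not overlap within WT or within TG, but across genotypes they did, with WT High replicate 2 at 1.03 and TG Low replicate 3 at 1.08. Zscan29 was picked for higher counts in High, which favours a higher ratio there. Tubgcp4 was singled out after its values were seen, as the one gene that overlaps a member's exons at a comparable level.

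**Figure D2:**
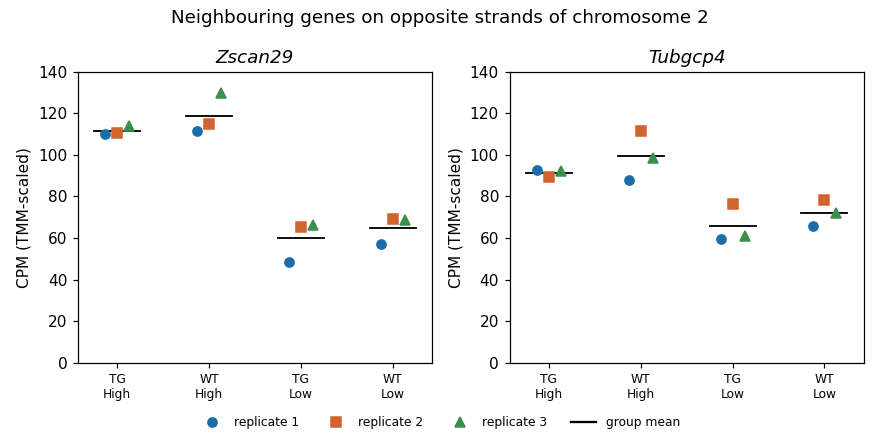
CPM (vertical axis, from 0, the same in both panels) of Zscan29 and of its head-to-head neighbour Tubgcp4 in the 12 libraries, by group, with markers for the replicate number and bars for group means (n = 3). In both genes each High library lies above each Low library, and the gap is wider in Zscan29.

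Myb (ENSMUSG00000019982, chromosome 10, 21124935 to 21160984, minus strand) had 58.2, 30.8 and 41.0 CPM in TG High and 20.5, 10.45 and 11.4 CPM in TG Low. WT High had 51.7, 38.4 and 54.7 CPM and WT Low 26.95, 7.855 and 18.6 CPM. Every High library exceeded every Low one, though the lowest, 30.8 CPM, stood close to the highest Low library. The log2 difference was 1.62 (SE 0.22) in TG and 1.55 (SE 0.21) in WT with the block. Of 11 Myb family and cofactor genes, 0 were called in either genotype, and of 9 tested genes known as Myb targets, also 0. The targets' median log2 difference was 0.23 in TG and 0.12 in WT. Among them Kit, a growth factor receptor of progenitors, averaged 3.08 CPM in TG High and 1.22 CPM in TG Low, a log2 difference of 1.35 (SE 0.34, edgeR adjusted p = 0.0582), while in WT it was 0.12 (SE 0.31, edgeR adjusted p = 0.985). Mybl2, a Myb relative of dividing cells, had log2 differences of 0.81 in TG and 0.60 in WT, neither called. Of 11 markers of immature thymocytes and progenitors, 6 stayed under 1 CPM in all libraries, Cd34 was at 0 in all 12, and the summed level was 224 to 254 CPM in TG High, 212 to 247 CPM in WT High, 212 to 252 CPM in TG Low and 199 to 269 CPM in WT Low. Nearly all of that sum was the marker Spn. The group means were at most 3.085 CPM for Kit, 4.08 CPM for Cd8a, 2.875 CPM for Dntt and 0.598 CPM for Flt3.

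Of the genes in signalling and lipid metabolism, Pla2g4f had the largest CD25 difference in TG. This gene (ENSMUSG00000046971, chromosome 2, 120299957 to 120314165, minus strand) had 28.85, 9.34 and 20.45 CPM in TG High and 7.17, 3.33 and 4.34 CPM in TG Low. In WT High it had 29.85, 17.0 and 26.6 CPM, and in WT Low 8.83, 4.53 and 8.76 CPM. Replicate 2 was the lowest library of every group, and the lowest High library still lay above the highest Low one. The log2 difference was 1.95 (SE 0.18) in TG and 1.75 (SE 0.17) in WT. Of 15 tested phospholipase A2 and eicosanoid genes, 0 were called. The neighbouring family member Pla2g4d had group means of at most 0.016 CPM (without TMM), while Pla2g4b, another cytosolic family member, had log2 differences of 0.30 (SE 0.14) in TG and 0.31 (SE 0.14) in WT (edgeR adjusted p = 0.405 and 0.497).

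Rasip1 (ENSMUSG00000044562, chromosome 7, 45627488 to 45639093, plus strand) had 24.6, 15.6 and 31.8 CPM in TG High and 6.56, 4.24 and 12.9 CPM in TG Low. WT High had 23.6, 17.9 and 31.1 CPM and WT Low 9.65, 7.64 and 10.5 CPM. High and Low libraries did not overlap, and replicate 3 was the highest of each group. The log2 difference was 1.66 (SE 0.17) in TG and 1.36 (SE 0.17) in WT. Of 23 tested genes of the Rap pathway around it, 0 were called, with a median of -0.02 in both genotypes. Of 14 endothelial markers, 12 stayed under 1 CPM in all libraries, and Tek, Tie1, Emcn and Sox17 were at 0 in all 12. The endothelial sum was 268 to 370 CPM in TG High, 295 to 356 CPM in WT High, 229 to 379 CPM in TG Low and 297 to 357 CPM in WT Low, nearly all of it Pecam1, which T cells also express. Rasip1 shares 654 exonic bases with Izumo1 on the same strand, whose group means were at most 0.405 CPM (without TMM), and it overlaps antisense transcripts that were not analysed here.

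Of the receptors at the cell surface, Selp (ENSMUSG00000026580, chromosome 1, 164115264 to 164150026, plus strand) had 8.48, 9.95 and 15.8 CPM in TG High and 3.99, 1.77 and 7.15 CPM in TG Low. WT High had 13.3, 7.71 and 14.0 CPM and WT Low 6.01, 2.24 and 7.44 CPM. High libraries all lay above Low ones, by as little as 7.71 CPM in WT High replicate 2 against 7.44 CPM in WT Low replicate 3. The log2 difference was 1.48 (SE 0.27) in TG and 1.23 (SE 0.26) in WT. Of the genes that build selectin ligands, St3gal6, a sialyltransferase, had log2 differences of -0.59 in TG and -0.57 in WT (edgeR adjusted p = 0.117 and 0.141), and Tpst2, a tyrosine sulfotransferase, -0.27 in TG and -0.23 in WT (edgeR adjusted p = 0.153 and 0.314); neither was called.

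P-selectin is a platelet protein, so platelet markers stand beside Selp. Pf4, Ppbp, Gp6, Vwf, Treml1 and Tubb1 were at 0 in all 12 libraries, and 11 of the 13 platelet and megakaryocyte markers stayed under 1 CPM. Their sum was 101 to 119 CPM in TG High, 84.7 to 117 CPM in WT High, 92.3 to 173 CPM in TG Low and 104 to 201 CPM in WT Low. The ranges of the gates overlapped in both genotypes. Nearly all of the sum was Itgb3, an integrin gene that averaged 107.6 CPM in TG High, 101.6 CPM in WT High, 132.9 CPM in TG Low and 147.5 CPM in WT Low. Itga2b averaged at most 1.25 CPM in any group.

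Stra6 (ENSMUSG00000032327, chromosome 9, 58063788 to 58153996, plus strand) had 12.9, 8.88 and 19.4 CPM in TG High and 4.15, 2.52 and 10.9 CPM in TG Low. In WT High it had 10.2, 5.73 and 16.3 CPM, and in WT Low 4.36, 4.855 and 8.365 CPM. High and Low libraries overlapped in both genotypes, since replicate 3 was the highest of every group. Within replicate numbers the log2 difference in TG was 1.64, 1.81 and 0.83 for replicates 1, 2 and 3, and in WT 1.23, 0.24 and 0.97. Fitted with the block, it was 1.35 (SE 0.22) in TG and 0.82 (SE 0.22) in WT. Of 14 tested genes of retinoid uptake and signalling, only Ccr9 was called, and only in WT and with the block. Ccr9, a gut-homing chemokine receptor that retinoic acid induces in T cells, had a log2 difference of 0.20 (SE 0.13, edgeR adjusted p = 0.582) in TG and 0.55 (SE 0.13, edgeR adjusted p = 0.0332) in WT, and that call was lost without any 1 of the 6 WT libraries (adjusted p up to 0.234).

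Of the secreted matrix proteins, Ntn4 (ENSMUSG00000020019, chromosome 10, 93640681 to 93747207, plus strand) had 35.4, 102 and 45.5 CPM in TG High and 13.2, 49.2 and 22.0 CPM in TG Low. WT High had 37.35, 67.9 and 42.6 CPM and WT Low 13.9, 33.2 and 24.85 CPM. Replicate 2 was the highest library in each group, and TG Low replicate 2 exceeded the other two TG High libraries. The log2 differences of same-numbered libraries were 1.42, 1.06 and 1.05 in TG and 1.43, 1.03 and 0.78 in WT. With the block the fit gave 1.15 (SE 0.17) in TG and 1.08 (SE 0.17) in WT. None of 8 tested genes for other netrins and netrin receptors was called, nor was Lamc1, the laminin chain that netrin-4 can bind, at 0.62 (SE 0.17) in both genotypes (edgeR adjusted p = 0.0982 in TG and 0.113 in WT).

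Matn2 (ENSMUSG00000022324, chromosome 15, 34306677 to 34436273, plus strand) had 20.9, 6.58 and 7.22 CPM in TG High and 11.4, 3.53 and 3.55 CPM in TG Low. WT High had 17.7, 9.74 and 8.28 CPM and WT Low 9.91, 2.56 and 3.13 CPM. Replicate 1 was the highest in each group, and its Low library exceeded the High libraries of replicates 2 and 3 within each genotype. The log2 difference with the block was 0.93 (SE 0.20) in TG and 1.36 (SE 0.19) in WT. Of 5 tested matrilin and matrix partner genes, 0 were called. The sum of 10 stromal markers, of which 6 were at 0 in all libraries, was 0.328 to 3.66 CPM in TG High, 0.915 to 0.964 CPM in WT High, 0.454 to 1.23 CPM in TG Low and 0.245 to 1.797 CPM in WT Low, below the level of Matn2 or Ntn4 in every group.

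Of the genes for cilia and meiosis, Drc1 (ENSMUSG00000073102, chromosome 5, 30281388 to 30366695, plus strand) had 23.4, 18.1 and 30.3 CPM in TG High and 4.92, 5.25 and 15.3 CPM in TG Low. WT High had 22.2, 16.9 and 23.3 CPM and WT Low 4.47, 4.58 and 9.83 CPM. Replicate 3 was the highest of each group, and the High libraries stayed above the Low ones. The log2 difference was 1.60 (SE 0.24) in TG and 1.81 (SE 0.24) in WT. Of 8 listed partners of its complex in the table, 3 had enough counts for a test and 0 were called.

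Rec8 (ENSMUSG00000002324, chromosome 14, 55618037 to 55625395, plus strand) had 17.5, 13.6 and 15.05 CPM in TG High and 8.19, 4.14 and 6.73 CPM in TG Low. WT High had 12.6, 12.3 and 9.85 CPM and WT Low 9.19, 8.24 and 5.87 CPM. All High libraries lay above all Low ones, and the TG High libraries were the highest. The log2 differences of same-numbered libraries were 1.09, 1.72 and 1.16 in TG and 0.45, 0.57 and 0.75 in WT. Fitted with the block, they gave 1.29 (SE 0.20) in TG and 0.59 (SE 0.19) in WT. Of 20 tested genes of cohesin and its regulators, 1 was called. That was Cdca5, the cohesin protector sororin, at a log2 difference of 1.02 (SE 0.24, edgeR adjusted p = 0.0408) in TG and 0.86 (SE 0.25, edgeR adjusted p = 0.12) in WT with the block. The call of Cdca5 was lost without any 1 library but WT High replicate 2, with an adjusted p of up to 0.207.

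**Figure D3:**
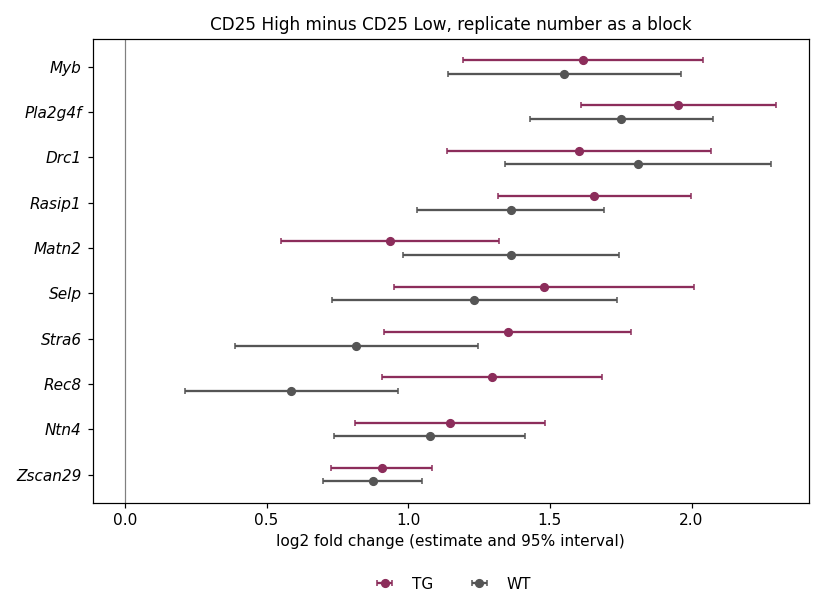
Log2 fold change of CD25 High minus Low (horizontal axis) for the 10 genes with the replicate number as a block, in TG (purple) and WT (grey); points are edgeR estimates and bars 95% intervals. All 20 estimates lie above 0, the lowest at 0.59 for Rec8 in WT and the highest at 1.95 for Pla2g4f in TG.

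Because the genes were chosen on these differences, the counts of calls that follow add nothing to them. With edgeR's quasi-likelihood test and Benjamini-Hochberg adjustment at 0.05, 0 of the 10 were called in TG (0.0085% of all genes were called higher) and 1 in WT, Zscan29 with an adjusted p of 0.0363 (0.0425% of all genes). That call held with DESeq2, and without TG Low replicate 1 or 2, but was lost without any one of the other 10 libraries, at log2 differences of 0.78 to 0.92. With the replicate number as a block, 10 of 10 were called in TG (0.986% of all genes) and 8 of 10 in WT (0.994%), all but Stra6 (adjusted p = 0.0889) and Rec8 (adjusted p = 0.205). DESeq2 without the block called 5 in TG and 4 in WT, where 44 and 33 of 11766 genes were called higher. Leaving out 1 library at a time with the block, 8 to 10 were called in TG and 6 to 9 in WT. In TG the call of Matn2 was lost without TG High replicate 1 or 3 or any 1 TG Low library, with an adjusted p of up to 0.175, and that of Selp without TG Low replicate 1, at 0.0822. In WT the call of Selp was lost without WT High replicate 1 or 2 or any 1 WT Low library, at up to 0.167, and that of Ntn4 without WT Low replicate 1, at 0.0588. Stra6 was called in WT in 2 of the 12 such fits.

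The CD25 differences of the genotypes were compared directly, as TG minus WT. No gene of 11766 was called for a different CD25 effect by edgeR, with 27 genes at an unadjusted p under 0.05 without the block and 118 with it, nor by DESeq2, with 29. For the 10 genes the difference of effects ran from -0.43 (SE 0.28) for Matn2 to 0.71 (SE 0.28) for Rec8 with the block, each at an adjusted p of 1. These differences are formed from the High to Low values that chose the genes, in one or both genotypes, so they are a description, and a gene picked through TG alone is favoured to lie above 0. The interval of Rec8 was 0.17 to 1.25, and that of Stra6, at 0.53, was -0.08 to 1.14. The narrowest was that of Zscan29, from -0.22 to 0.28 around 0.03.

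The comparison of genotypes within a gate asks whether these genes in the T cells differed with an Atg5 deletion aimed at CD11c-expressing cells. Neither gate gave a call for any of the 10 genes or for any other gene, so 0.0% of the 11766 genes were called in both gates, with or without the block. At an unadjusted p under 0.05 there were 99 genes in High and 48 in Low without the block, 418 and 382 with it, and 105 and 52 by DESeq2, which called 0 as well. Pla2g4f had the lowest estimate in both gates. It was lower in TG in 3 of 3 same-numbered pairs of each gate, with log2 differences of -0.05, -0.86 and -0.38 in High and -0.30, -0.44 and -1.01 in Low. The fitted differences with the block were -0.38 (interval -0.69 to -0.07) in High and -0.58 (interval -0.93 to -0.23) in Low (edgeR adjusted p = 0.999 and 1).

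Rec8 had the highest estimate in High, 0.41 (interval 0.04 to 0.78), and was higher in TG High in 3 of 3 pairs, but in Low it was -0.30 (interval -0.69 to 0.10). Stra6 likewise stood at 0.39 (interval -0.03 to 0.81) in High and at -0.14 (interval -0.59 to 0.30) in Low. Both were called between the gates in TG and not in WT, so their choice favours this pattern. Drc1 was higher in TG in every pair of both gates, at 0.17 (interval -0.27 to 0.61) in High and 0.38 (interval -0.11 to 0.86) in Low. Zscan29 was lower in TG in every pair, at -0.09 (interval -0.26 to 0.09) and -0.12 (interval -0.30 to 0.06), the narrowest intervals of the 10. The other five estimates were between -0.21 and 0.20 in High and between -0.32 and 0.26 in Low. In all, 4 of 10 were above 0 in High and 3 of 10 in Low. These intervals leave room for a difference in either direction for most of the genes.

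**Figure D4:**
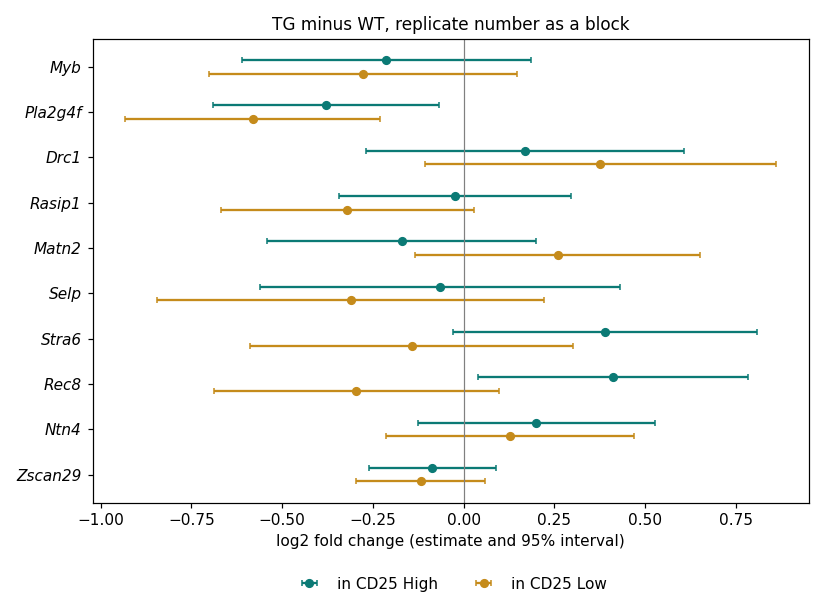
Log2 fold change of TG minus WT (horizontal axis) for the 10 genes in CD25 High (green) and CD25 Low (ochre), with the replicate number as a block; points are edgeR estimates and bars 95% intervals. Most bars cross 0; those that do not are Pla2g4f in both gates and Rec8 in High, and none was called.

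Some of the 10 genes also differed between replicate numbers, a contrast that is balanced over the groups and that the choice of genes did not use. The split of number 1 against the others was set with earlier results of these data known. Its p-values and counts of calls are therefore a description of these libraries. Libraries numbered 1 were set against the mean of those numbered 2 and 3 in the blocked fit, in which 5 of the 10 genes were called, 3 higher and 2 lower. Over all genes 27.5% were called, 16.8% higher and 10.7% lower. Matn2 moved most, at a mean of 15.0 CPM in replicate 1, against 5.6 CPM in replicate 2 and 5.55 CPM in replicate 3, a log2 difference of 1.496 (SE 0.14, edgeR adjusted p = 5.17e-07). Pla2g4f, at 18.7, 8.55 and 15.0 CPM in replicates 1, 2 and 3, was higher in replicate 1 by 0.72 (SE 0.12, edgeR adjusted p = 0.000326), and Myb, at 39.3, 21.9 and 31.5 CPM, was higher by 0.71 (SE 0.15, edgeR adjusted p = 0.00502). Ntn4 was lower in replicate 1, at 24.96 CPM, against 63.2 and 33.75 CPM, a log2 difference of -0.94 (SE 0.13, edgeR adjusted p = 0.000168). Zscan29 was lower by a small amount, -0.22 (SE 0.07, edgeR adjusted p = 0.0269), and this call was lost without WT High replicate 3, TG Low replicate 1 or WT Low replicate 1 (adjusted p = 0.0512, 0.184 and 0.11). The other four calls held without any 1 library, while the count over all genes, 3239, ran from 2081 without TG Low replicate 1 to 3958.

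For the other five genes replicate 1 was not called apart, with log2 differences of -0.27 for Drc1, 0.01 for Rasip1, 0.11 for Selp, -0.19 for Stra6 and 0.36 for Rec8; Rec8 was called without TG Low replicate 3 (edgeR adjusted p = 0.0491). Drc1, Rasip1, Selp and Stra6 had their highest mean in replicate 3 and their lowest in replicate 2, Stra6 for example 7.92, 5.50 and 13.75 CPM in replicates 1, 2 and 3. Ntn4 instead was highest in replicate 2. Markers of other cells moved with replicate 1. The summed B cell markers were 205 to 374 CPM in the 4 libraries numbered 1 and 34.3 to 95.5 CPM in the other 8, the myeloid and dendritic markers 21.2 to 154 CPM and 9.06 to 17.8 CPM, the CD8 T and NK markers 114 to 148 CPM and 57.9 to 93.5 CPM, and the cell cycle genes 398 to 689 CPM and 139 to 191 CPM. The summed T cell markers were 11800.0 to 12210.0 CPM in libraries numbered 1 and 11060.0 to 13800.0 CPM in the others. The part of other cells or of cycling cells in the replicate differences of Matn2, Pla2g4f, Myb and Ntn4 was not tested.

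Marker lists also moved between the CD25 gates in the blocked fit. Of 17 Treg markers, which include the sorted gene Il2ra, 8 were called higher and 1 lower in High in TG, with a median log2 difference of 0.42, and 13 higher and 0 lower in WT, with a median of 0.51. Of 12 cell cycle genes 0 were called in TG and 1 in WT, the topoisomerase gene Top2a at 0.73 (SE 0.15, edgeR adjusted p = 0.016); the list's median was 0.30 in TG, with 11 of 12 above 0, and 0.08 in WT, with 9 of 12 above 0. Of 11 CD8 T and NK markers 1 was called lower in TG and 4 in WT, where 0.697% and 0.637% of all genes were called lower. Those 4 were the NK receptor genes Ncr1, Klrk1, Klrd1 and Klrb1c, at -3.46 to -3.12 in WT, of which Klrk1 was also called in TG, at -3.48. Each of them averaged under 4 CPM in every group. The whole list of 11 had a median of -0.40 in TG and -0.27 in WT, with 4 of 11 above 0 in each genotype. Of 7 tested myeloid markers 0 were called, yet 6 of 7 were below 0 in each genotype, with a median of -1.55 in TG and -0.67 in WT. Their gap lay mainly in the libraries numbered 1. In TG the summed myeloid list was 38.7 CPM in High and 153.5 CPM in Low for replicate 1. For replicates 2 and 3 it was 10.4 and 11.8 CPM in TG High, and 9.24 and 9.06 CPM in TG Low. In WT it was 21.2, 12.8 and 12.9 CPM in High and 87.7, 17.8 and 10.9 CPM in Low for replicates 1, 2 and 3. Of 12 B cell markers 0 were called, and 10 were below 0 in TG and 12 in WT, with medians of -0.26 and -0.45. The part of these cells in the CD25 differences of the 10 genes was not tested. Without the 4 libraries numbered 1, each of the 10 genes stayed higher in High in both genotypes. The remaining libraries also entered the choice of the genes, so this is a description and tests no part of other cells. In the blocked fit without them, 29 of 11562 genes were called higher in TG and 36 in WT. Of the 10, 8 were called in TG, where Matn2 (edgeR adjusted p = 0.25) and Stra6 (edgeR adjusted p = 0.12) were not. In WT 6 were called, without Selp (adjusted p = 0.111), Ntn4 (adjusted p = 0.0559), Stra6 (adjusted p = 0.914) and Rec8 (adjusted p = 0.789).

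**Figure D5:**
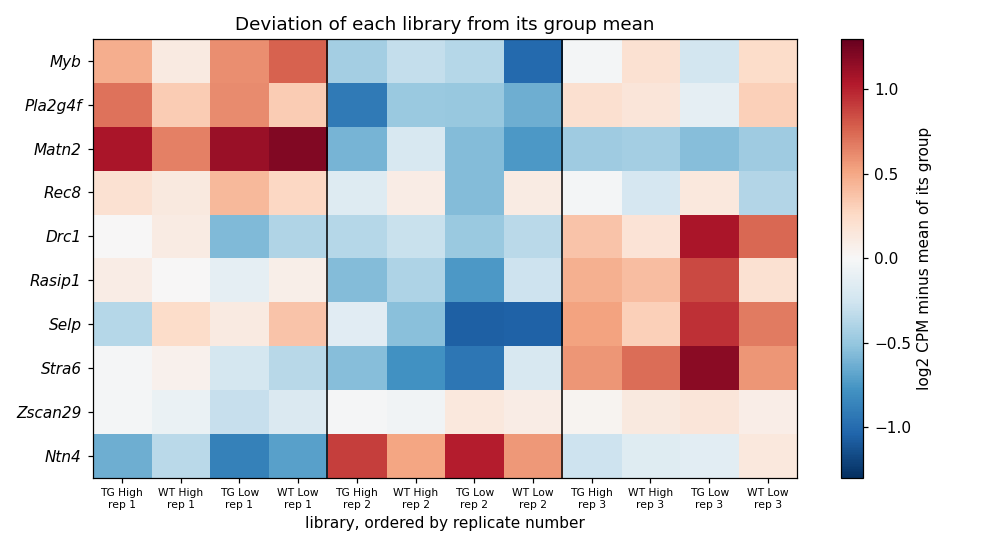
Colour gives the log2 CPM of each of the 10 genes (rows) in each library (columns, ordered by replicate number) minus the mean of its group; red is above and blue below that mean. Myb, Pla2g4f and Matn2 are red in replicate 1, Ntn4 in replicate 2, and Drc1, Rasip1, Selp and Stra6 in replicate 3, in all 4 groups but for single pale or opposite cells.

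The genes whose pattern over the 12 libraries was most like each of the 10 were found by Pearson's r of log2 CPM after the mean of each replicate number was taken out. The libraries share gates and replicate numbers, so r is a description, and it is carried largely by the gap between High and Low on which the 10 genes were chosen. Among the 10 themselves r ran from 0.738 to 0.964 by this measure, but from -0.909 to 0.944 with the group means taken out in place of the replicate means. Zscan29 and Myb, for example, had r = 0.925 by the one and r = -0.602 by the other. Zscan29 varied most like Il2ra itself (r = 0.979), Il2rb (r = 0.978), the beta chain of the same receptor, and Ahcyl2 (r = 0.976). Myb was closest to Adamts6 (r = 0.965) and Tagap1 (r = 0.963), and Pla2g4f to Tubgcp4 (r = 0.986), Adamts6 (r = 0.972) and Itih5 (r = 0.948). Adamts6, a secreted metalloprotease gene, stood in both lists, and Tubgcp4 was described above as the neighbour of Zscan29.

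Drc1 was closest to Tmem120b (r = 0.988), Rasip1 to Chchd10 (r = 0.98), Matn2 to Rundc3a (r = 0.975) and Selp to Ppm1b (r = 0.976). Stra6 had Ggta1 (r = 0.949), Ibtk (r = 0.948) and Stat5a (r = 0.945), the last a transcription factor activated by interleukin-2. Rec8 had the autophagy gene Gabarapl1 (r = 0.952), and Ntn4 had Map7 (r = 0.985), Hdac1 (r = 0.981) and Prkca (r = 0.967).

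Genes beside the 10 on the chromosome were followed to see whether they moved too. In the blocked High minus Low comparisons Tubgcp4 was called in both genotypes, as given above. Ipo4, which ends 5 bases from Rec8 on the opposite strand, averaged 85.1 CPM in TG High, 78.1 CPM in WT High, 78.8 CPM in TG Low and 76.1 CPM in WT Low, and the group means of Irf9 on its other side were 319 to 339.7 CPM, and neither was called. Hbs1l beside Myb, Vps39 beside Pla2g4f and Laptm4b beside Matn2 were likewise not called. Mamstr, 884 bases from Rasip1, had log2 differences of 0.70 (SE 0.44) in TG and 1.22 (SE 0.40) in WT. It was not called either, and its group means were at most 1.75 CPM. Myb and Selp also overlap antisense transcripts that were not analysed here, whose reads this kit would not separate.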

How the data were processed

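The deposited table holds raw read counts for each Ensembl gene, without scaling. The submitters' processing notes name CASAVA 1.8.2, STAR 2.4 and featureCounts 1.4.6 and build GRCm38, with no settings. Per the labels' protocols, 10 ng of RNA went into SMARTer Ultra Low cDNA synthesis, followed by Nextera XT per the design text; this chemistry does not record strand. Of 21839 genes, 21628 were matched to a symbol in GENCODE vM21, the source of all gene positions.

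Counts were tested in R 4.3.3 with edgeR 4.0.16, using TMM scaling, filterByExpr at a minimum count of 10 (11766 genes kept, with 99.96% of the counts) and robust quasi-likelihood fits of the 4 groups over all 12 libraries. P-values were adjusted by Benjamini-Hochberg over all genes tested, with a threshold of 0.05. The scripts were tested on simulated data. A 95% interval is 1.96 SE to either side of an estimate. That multiplier takes no account of the small number of libraries, so these intervals are too narrow. Without the block, the interval of Rec8 for the difference of CD25 effects was 0.006 to 1.401, at an unadjusted edgeR p of 0.0719. Likeness used log2 CPM with a prior count of 1. DESeq2 1.42.0, its size factors, no filter, leaving out libraries, and the replicate number as a block were alternatives.

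Same-numbered libraries of different groups deviated together from their group means (r from 0.318 to 0.825 in 18 pairs), differently numbered ones did not (-0.683 to 0.195 in 36 pairs), and 12 of 12 libraries matched best with their own number. The numbers therefore pair the libraries; the labels do not say what they mark.

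The members and gene lists were chosen with earlier results of these data known. Named are the 10 genes, Il2ra, Foxp3, Atg5, genes with the smallest p of each pathway list, overlapping or nearest genes, and the 3 genes of at least 10 CPM most like each member; Tubgcp4, Ccr9 and Cdca5 were followed through the alternatives after their values were seen. A few genes that these rules name are not reported here.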

Additional observations from a re-analysis of the deposited data

How the results depend on the processing

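The direction of High minus Low held for all 10 genes in both genotypes under every alternative run, which their choice on the same libraries favours. Counts of genes called depended on the setting. Against 1 in TG and 6 in WT, the replicate block gave 198 and 192 and DESeq2 63 and 46. Leaving out the 4 libraries numbered 1 gave 0 and 0 without the block and 39 and 49 with it, and no filter on low counts gave 3 in TG. Leaving out 1 library gave 0 to 3 in TG and 0 to 7 in WT without the block, and 74 to 235 and 87 to 247 with it. The genotype comparison in Low gave 0 to 2 calls, 2 of them in the blocked fit without WT High replicate 2, and in High 0.

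Most genotype differences of the 10 genes were small against their error. With the block, the intervals of Pla2g4f in both gates and of Rec8 in High left out 0, without a call. So did that of Rec8 for the difference of CD25 effects. Leaving out 1 library, Pla2g4f in Low ran from -0.94 to -0.35 and Rec8 in High from 0.31 to 0.55. Among all 10 genes, the sign changed in 25 of 300 values in High, 23 in Low and 44 for the difference of CD25 effects. In High, Rasip1 was 0.0023 with DESeq2's size factors, and Selp was 0.27 without the libraries numbered 1 and 0.23 with the block added. In Low, Stra6 was 2e-04 with DESeq2 and 0.018 without the libraries numbered 1. For the difference of effects without those libraries, Myb was -0.086, and -0.18 with the block, and Zscan29 -0.057, and -0.056 with the block. The causes were not tested.

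Leaving out 1 library, the difference of TG minus WT in High ran from -0.44 to 0.040 for Myb, from -0.69 to 0.012 for Pla2g4f, from -0.080 to 0.39 for Drc1, from -0.26 to 0.22 for Rasip1, from -0.78 to 0.37 for Matn2, from -0.37 to 0.22 for Selp and from -0.28 to 0.60 for Ntn4. In Low it ran from -0.70 to 0.091 for Myb, -0.31 to 0.91 for Drc1, -0.78 to 0.074 for Rasip1, -0.55 to 1.11 for Matn2, -0.86 to 0.095 for Selp, -0.81 to 0.36 for Stra6, -0.44 to 0.57 for Ntn4 and -0.20 to 0.020 for Zscan29. The difference of CD25 effects ran from -0.24 to 0.56 for Myb, -0.12 to 0.64 for Pla2g4f, -0.70 to 0.52 for Drc1, -0.074 to 0.78 for Rasip1, -1.14 to 0.52 for Matn2, -0.12 to 0.83 for Selp, -0.004 to 1.17 for Stra6, -0.52 to 0.73 for Ntn4 and -0.11 to 0.11 for Zscan29. High minus Low ran from -0.61 to 2.83 in TG and from -0.77 to 2.50 in WT for Cdca5, and from -0.069 to 0.46 in TG for Ccr9. Replicate 1 against the mean of 2 and 3 ran from -0.048 to 0.095 for Rasip1 and from -0.015 to 0.32 for Selp, and its count of calls from 2081 to 3958. The library with the lowest total, TG High replicate 2, holds 6767828 counts.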
